A study of Mus musculus with 51 samples.

Results

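Kidneys of C57BL/6 mouse fetuses collected on embryonic day 19 were compared with kidneys collected on embryonic day 18 at the same clock time. The samples are the 4 libraries of CT24 (embryonic day 19, hour 24 of the series) and the 4 libraries of CT0 (embryonic day 18, hour 0), 8 of the 51 libraries of the series, taken by the time in their labels and not by any measured value. All are labelled wild type and fetal kidney, no treatment is named, and poly-A RNA was sequenced. The other 5 time points of embryonic day 18, CT4, CT8, CT12, CT16 and CT20 (19 libraries), served as a check of each change, since they share no library with CT24 or CT0. Dams and litters are not named in the labels, so it is not known whether samples of a time point share a litter. Unless another fit is named, p-values measure only the spread between samples within time points, pooled over all 51 libraries. The median SD of log2 values within time points was 0.0745 at CT0 to CT24 and 0.136 at CT28 to CT48.

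In the last days before birth the mouse kidney still makes nephrons from progenitors at its rim, while the nephrons formed earlier mature in the deeper cortex and medulla. Maturing tubule cells switch on genes of transporters, brush border enzymes and lysosomal enzymes, and progenitor and stromal cells keep dividing. Interferon-stimulated genes are transcribed when transcription factors activated by interferon bind the interferon-stimulated response element (ISRE), and their products serve in antiviral defence and antigen display. In bulk tissue a smaller number of cells of a type and less RNA per cell cannot be told apart, and this holds for every result below.

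The values are the authors' normalised values, rounded to whole numbers. They sum to 34543790 to 34768218 in the CT24 libraries and 34309947 to 34480058 in the CT0 libraries, which does not give sequencing depth, so precision comes from the spread between libraries alone. The 13 kidney markers were present in all 8 libraries. The first principal component of the 27 libraries of CT0 to CT24, with 15.9% of the variance, placed the CT24 libraries at 7.74 to 15.7 and the CT0 libraries at -16.4 to -6.17. Liver RNA differed between libraries. Alb, serum albumin, had 18, 1224 and 619 in CT24 replicates 1, 3 and 4 and a CT24 mean of 500, against 25, 75, 226 and 109 in the CT0 libraries, and the 10 liver markers summed to 10966 to 13630 at CT24 and 9266 to 10197 at CT0. Without Ttr the other 9 summed to 8164 to 11197 at CT24 and 8297 to 8838 at CT0, so the groups overlapped. Most of that sum was Afp, with 7141, 7254, 7851 and 7374 at CT24 and 7471, 7291, 7324 and 7165 at CT0. All 10 liver markers had a difference above 0, with a median of 0.676 in log2(value + 1). Their mean on that scale, relative to CT0, ranged from -0.327 to 1.59 at CT24 and -0.491 to 0.535 at CT0. The 13 macrophage markers summed to 7360 to 8233 at CT24 and 5826 to 7189 at CT0. Csf1r was the largest part of this sum, with 2003 to 2415 at CT24 and 1448 to 1715 at CT0. Lyz2 and Lyve1 had overlapping groups. The mean log2(value + 1) of the 13, relative to CT0, ranged from 0.178 to 0.322 at CT24 and -0.188 to 0.165 at CT0. Of the liver markers 1 was higher by the test below, Ttr. Of the macrophage markers 4 were higher, Csf1r and the 3 C1q chains, and the count was 2 without CT24 replicate 1, CT24 replicate 2, CT24 replicate 4 or CT0 replicate 1, and 1 without CT0 replicate 2. No tested marker of adrenal gland (3), skeletal muscle (6), erythroid cells (5), fat (1), nerve (8) or other blood cells (7) passed, although CT0 replicate 3 stood apart with a muscle marker sum of 1020 against 330 to 393 in the other CT0 libraries. CT24 replicate 4 stood apart with a nerve marker sum of 1818 against 680 to 728 in the other CT24 libraries. At CT0 that sum was 663 to 977.

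Of 14426 genes tested, 1443 (10%) differed between CT24 and CT0, 872 higher at CT24 (6.04%) and 571 lower (3.96%), at an adjusted p under 0.05 in limma on log2(value + 1). Differences are given on that scale throughout, as CT24 minus CT0. The rises were larger than the falls. The median size was 0.338 for genes higher and 0.239 for genes lower, and 230 genes were higher by over 0.5 against 16 lower by as much. Groups that do not overlap, meaning that all 4 libraries of one group lie beyond all 4 of the other, were found for 825 of the 872 and 554 of the 571. By the same measure 14.8% of all tested genes had every CT24 library above and 13.2% had every CT24 library below. Single libraries weighed on the number of calls: it was 773 without CT24 replicate 2, 864 without CT0 replicate 2 and 880 without CT0 replicate 3. The number lower was 351 without CT24 replicate 3. A fit of the 27 libraries of CT0 to CT24 alone, whose spread is smaller than that of the later time points, called 3832 genes (26.6%) for CT24 against CT0. Of the 205 called genes named by the rules of this account, 89 missed the threshold in at least 1 of 21 other settings. Unless a library or setting is named beside it, a gene given here as higher or lower passed in every setting that tested it. That was all 21, or 20 for genes with a mean under 100, which 1 setting left out.

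The direction of change over the hours between matched the rises more often than the falls. A straight line was fitted over the means of CT4 to CT20, and its slope is given per 24 h. Of the 872 genes higher at CT24, 837 (96%) had a positive slope over CT4 to CT20, against 51.9% of all tested genes. Of the 571 genes lower, 397 (69.5%) had a negative slope, against 48.1% of all tested genes. Among genes that were not called, the slope had the sign of the difference in 63.6%, so the share of the genes lower was near that level. Without CT20 the shares of the genes higher and lower were 70.6% and 45.4%, so the last of the 5 time points carried much of the match. The slope itself passed the threshold in 76 genes (0.527%), and 60 of them also differed between CT24 and CT0 in the same direction, 56 up and 4 down. Without CT20 the slope passed in 19 genes, 8 of them in both, and in the fit of CT0 to CT24 alone in 1203 (8.34%), 664 of them in both. All 5 intermediate means lay between those of CT24 and CT0 for 905 of the 1443 genes (62.7%), against 13.4% of all tested genes. The calls and this count use the same CT24 and CT0 means, and a wider gap holds more means. A higher share among called genes was thus partly fixed in advance, and this count is no check of the changes. The median share of the one-day difference reached by the genes higher was 26.3% at CT4, 44% at CT8, 45.4% at CT12, 46.7% at CT16 and 83.5% at CT20. For the genes lower it was 33.3%, 52.5%, 42.3%, 33.9% and 62% at the same times. These median shares are also measured against the CT24 and CT0 means that gave the calls. The plot of the one-day difference against the slope shows both.

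**Figure D1:**
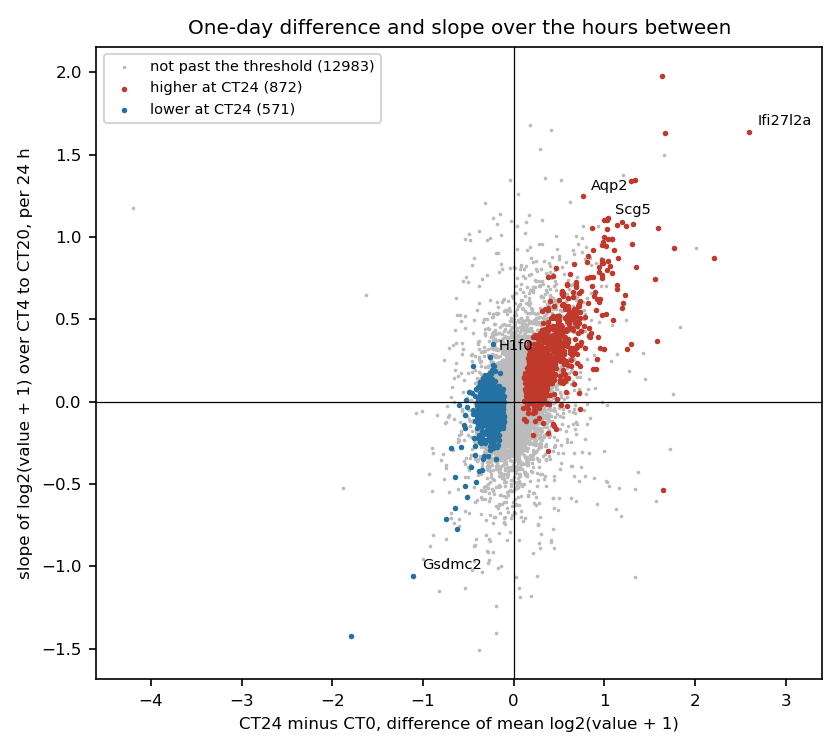
Each point is 1 of the 14426 tested genes. The horizontal axis is the difference of mean log2(value + 1) between the 4 CT24 and the 4 CT0 libraries, and the vertical axis is the slope over CT4 to CT20 per 24 h, from 19 other libraries. Red genes (872, higher at CT24) lie mostly above the horizontal line, while blue genes (571, lower) lie on both sides of it, with H1f0 among those above.

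The largest rises included interferon-induced, secretory and tubule genes. Ifi27l2a, an interferon-induced gene at chromosome 12, 103442167 to 103443680 of GRCm38 (the build also called mm10), had 1240, 1000, 1087 and 976 in the CT24 libraries, against 187 ± 76.9 (mean and SD) in the CT0 libraries, none of them above 290. Every CT24 library was above every CT0 library, and the difference was 2.60 ± 0.34 (SE, adjusted p = 2.02e-06). Scg5, secretogranin V, a chaperone of a prohormone convertase, had 639, 805, 684 and 639 in the CT24 libraries, against 359, 360, 332 and 300 in the CT0 libraries, with no overlap and a difference of 1.03 ± 0.12 (adjusted p = 1.57e-07). It climbed through the day, with means of 382, 484, 503, 525 and 694 at CT4, CT8, CT12, CT16 and CT20 and a slope of 1.10 ± 0.18 (adjusted p = 0.000327).

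Defb19, a beta-defensin, followed the same gradual course. It had 936, 1056, 767 and 892 in the CT24 libraries, against 498, 393, 391 and 364 in the CT0 libraries, a difference of 1.15 ± 0.15 (adjusted p = 6.41e-07) and a slope of 0.88 ± 0.21 (adjusted p = 0.038). Rgs4, a regulator of G protein signalling, had 234, 290, 234 and 345 in the CT24 libraries, against 114.5 ± 16.4 (mean and SD) in the CT0 libraries, with separate groups and a difference of 1.25 ± 0.19 (adjusted p = 1.09e-05). Its means at the hours between were 160, 177, 192, 190 and 187 at CT4, CT8, CT12, CT16 and CT20, and its slope did not pass (adjusted p = 0.769). Aqp6, a water channel of vesicles in acid-secreting intercalated cells, was higher by 1.14 ± 0.22 (adjusted p = 0.000442), with 439, 498, 478 and 435 at CT24 and 278, 207, 139 and 236 at CT0. Ttr, transthyretin, a carrier of thyroid hormone that the liver also makes in quantity, had 2802, 3206, 2433 and 2678 in the CT24 libraries, against 1320, 969, 1359 and 1189 in the CT0 libraries (1.21 ± 0.25, adjusted p = 0.000984). The part of liver RNA in this difference was not tested.

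The falls were smaller and included glycolipid, matrix and defence genes. Gsdmc2, a gasdermin at chromosome 15, 63824346 to 63845177, had 219, 157, 168 and 209 in the CT24 libraries, against 290, 492, 441 and 416 in the CT0 libraries, and no value at CT24 reached the CT0 range (-1.11 ± 0.22, adjusted p = 0.00083). Its means were 412, 322, 236, 254 and 253 at CT4, CT8, CT12, CT16 and CT20, so most of its fall lay before CT12. B3gnt5, a glycosyltransferase of lacto-series glycolipids, had 381, 383, 432 and 389 in the CT24 libraries, against 614, 592, 698 and 582 in the CT0 libraries (-0.65 ± 0.13, adjusted p = 0.000873), and its lowest mean was not at CT24 but at CT12, with 356. Ptx3, a soluble pattern recognition protein, was lower too, with 169, 180, 166 and 174 at CT24 and 281, 234, 238 and 282 at CT0 (-0.58 ± 0.13, adjusted p = 0.00186), and had reached a mean of 183 by CT8. Emilin3, an extracellular matrix glycoprotein, differed by -0.62 ± 0.16 (adjusted p = 0.00728), and Crabp2, a carrier of retinoic acid inside cells, by -0.52 ± 0.13 (adjusted p = 0.00757). For both, the slope over CT4 to CT20 was negative but did not pass (-0.77 ± 0.23 for Emilin3 and -0.58 ± 0.19 for Crabp2).

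**Figure D2:**
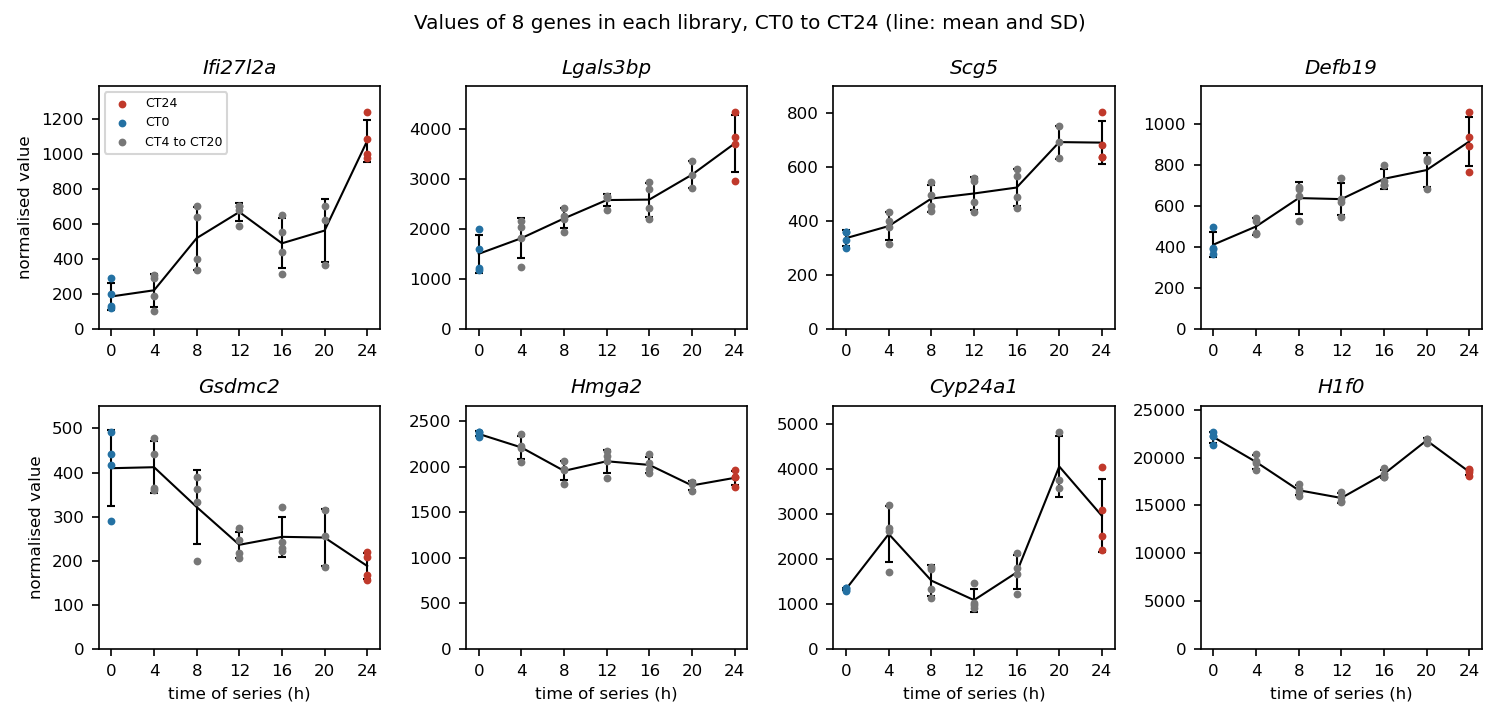
Normalised values of 8 genes in each library (points) over hours 0 to 24 of the series, with the mean and SD of each time point (line and bars; 4 libraries, 3 at CT20). CT24 is red and CT0 is blue. Scg5, Defb19 and Lgals3bp climb through the day, Hmga2 is lower at CT24 than at CT0, Cyp24a1 peaks at CT4 and CT20, and H1f0 is lowest at CT12.

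Interferon-stimulated genes had the highest median difference of the families with at least 15 tested members. Of 68 tested, 42 were higher at CT24 (61.8%, against 6.04% of all tested genes) and 0 lower (also 0 at an unadjusted p under 0.05). The median difference was 0.55, against 0.00107 for all tested genes. The 42 all had a positive slope over CT4 to CT20, as had 837 of all 872 genes higher, and that of 1 (Lgals3bp) passed the threshold. Only 19 of the 42 had groups that do not overlap, against 825 of all 872 genes higher. The mean over the 68 genes, relative to CT0, ranged from 0.367 to 0.857 at CT24 and -0.335 to 0.362 at CT0. Irf7, the transcription factor that amplifies the interferon response, had 1220, 910, 1196 and 673 in the CT24 libraries, against 572, 367, 308 and 683 in the CT0 libraries. CT24 replicates 1 and 3 were the high ones and CT0 replicate 4 exceeded CT24 replicate 4, so the groups overlapped. Its difference of 1.08 ± 0.27 (adjusted p = 0.00769) was lost without CT0 replicate 3 (adjusted p = 0.0562) and in the fit of the 8 libraries alone (0.0548). The number of family members higher was 27 in that fit, although the fit called more genes in all (4068). It was 27 without CT24 replicate 1, 23 without CT24 replicate 3, 20 without CT0 replicate 2 and 19 without CT0 replicate 3.

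Other members had separate groups. Lgals3bp, a secreted galectin-binding protein, had 3834, 3690, 4328 and 2951 in the CT24 libraries, against 1606, 1220, 1190 and 1998 in the CT0 libraries, a difference of 1.32 ± 0.18 (adjusted p = 6.3e-06) and a slope of 1.08 ± 0.26 (adjusted p = 0.0417). Gbp6, a guanylate-binding protein, had 335, 212, 316 and 174 in the CT24 libraries, against 91.5 ± 49.4 (mean and SD) in the CT0 libraries, none of them above 157 (1.59 ± 0.36, adjusted p = 0.00307). Oas2, a synthetase of the 2-5A messenger that activates antiviral RNA decay, had 291, 235, 324 and 225 in the CT24 libraries, against 120, 80, 78 and 154 in the CT0 libraries (1.35 ± 0.32, adjusted p = 0.00453). In these genes too CT0 replicates 1 and 4 were the highest of CT0. Ifih1, the cytoplasmic sensor of double-stranded RNA also called MDA5, had overlapping groups. It was higher by 0.66 ± 0.13 (adjusted p = 0.00043), although CT24 replicate 4, at 661, lay below CT0 replicate 4, at 671. Close copies within the Gbp, Oas and Ifit families cannot be separated with confidence here, so single genes of those families are uncertain.

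The ISRE core was looked for in the 300 bases around the start site (250 before, 50 after; RefSeq, GRCm38.p6) as GAAA, any 2 bases and GAAA again, on either strand. Of the 51 family members with a promoter sequence 25 held it (49%), against 401 of 11129 tested genes (3.6%). The element did not separate the members that rose from those that did not, as 15 of 34 (44.1%) and 10 of 17 (58.8%) held it. The 150 bases before the start are shown for 4 of the higher members that carry the element there. Capitals mark the ISRE core on either strand.
Ifit1 (chr19:34640739-34640888, plus strand): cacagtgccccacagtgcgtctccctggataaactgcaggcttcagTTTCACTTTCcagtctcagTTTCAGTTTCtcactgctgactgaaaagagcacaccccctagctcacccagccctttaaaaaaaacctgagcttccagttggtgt
Oas1a (chr5:120907526-120907675, minus strand): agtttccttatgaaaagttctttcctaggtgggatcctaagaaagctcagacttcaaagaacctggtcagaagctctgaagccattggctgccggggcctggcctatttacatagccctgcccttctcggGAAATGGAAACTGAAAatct
Gbp3 (chr3:142559894-142560043, plus strand): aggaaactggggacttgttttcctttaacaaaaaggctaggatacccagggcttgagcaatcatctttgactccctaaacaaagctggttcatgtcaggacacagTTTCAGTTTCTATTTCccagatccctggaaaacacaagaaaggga
Ifit3 (chr19:34583379-34583528, plus strand): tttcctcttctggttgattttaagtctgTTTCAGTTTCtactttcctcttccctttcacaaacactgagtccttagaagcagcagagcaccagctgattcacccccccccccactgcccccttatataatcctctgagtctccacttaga
Ifit1, Oas1a and Gbp3 hold 2 cores each, which overlap in Oas1a and Gbp3. These 4 genes were picked for their promoters, after their values were seen. Oas1a, another 2-5A synthetase, had 278, 234, 277 and 192 in the CT24 libraries, against 116.2 ± 30.2 (mean and SD) in the CT0 libraries, none of them above 157 (1.09 ± 0.26, adjusted p = 0.00443) and passed in every other setting. Ifit1, an interferon-induced protein that binds viral RNA, had 686, 397, 644 and 280 in the CT24 libraries, against 224 ± 121.8 (mean and SD) in the CT0 libraries, none of them above 365 (1.24 ± 0.41, adjusted p = 0.0448). CT24 replicate 4, at 280, lay below CT0 replicates 1 and 4, and the call was lost without CT24 replicate 1 (adjusted p = 0.136), CT24 replicate 2 (0.0759), CT24 replicate 3 (0.144), CT0 replicate 2 (0.151) or CT0 replicate 3 (0.213), and in 3 other settings, quantile normalisation among them (0.0506). Gbp3 (1.07, adjusted p = 0.00766) and Ifit3 (0.87, adjusted p = 0.00908) did not pass without CT0 replicate 3 (adjusted p = 0.0603 and 0.0635), nor in the fit of the 8 libraries alone (0.0594 and 0.0656).

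Some antigen display genes were higher. Of 25 tested MHC genes 8 were higher (32%, against 6.04% of all tested genes) and 0 lower, also 0 at an unadjusted p under 0.05 (median 0.335). The 8 had separate groups, as had 825 of all 872 genes higher. H2-K1, a classical class I heavy chain, had 2256, 2412, 2284 and 2286 in the CT24 libraries, against 1426, 1276, 1349 and 1462 in the CT0 libraries (0.75 ± 0.08, adjusted p = 2.19e-08), and H2-D1, the other one, differed by 0.55 ± 0.08 (adjusted p = 3.22e-06). H2-T23, a nonclassical class I chain, differed by 0.94 ± 0.16 (adjusted p = 5.99e-05). H2-Q2 showed 118 ± 19.9 (mean and SD) in the CT24 libraries, none of them below 92, against 64, 38, 49 and 50 in the CT0 libraries (1.23 ± 0.25, adjusted p = 0.000736), but H2 genes are close copies and counts can be split between them. Among 47 proteasome subunits 3 were higher (6.38%, near the 6.04% of all tested genes) and 0 lower, although 15 were lower at an unadjusted p under 0.05. In the fit of CT0 to CT24 alone 3 were higher and 15 lower, and in the fit of the 8 libraries alone 3 and 16, so the balance turned round. The 3 higher in the fit of all libraries were Psmb8 (0.75), Psmb9 (0.74) and Psmb10 (0.28), the interferon-induced subunits of the immunoproteasome. Psmb9 was not past the threshold without CT0 replicate 2 (adjusted p = 0.0624). The summed macrophage markers were also higher at CT24, as given above, and their part in these results was not tested.

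Complement and coagulation genes were higher in 11 of 36 (30.6%, against 6.04% of all tested genes) and lower in 0, also 0 at an unadjusted p under 0.05 (median 0.261). The count was 6 without CT24 replicate 2 and 6 without CT0 replicate 2. Proc, protein C, an anticoagulant protease precursor, had 340, 403, 361 and 338 in the CT24 libraries, against 190, 164, 175 and 190 in the CT0 libraries (1.00 ± 0.16, adjusted p = 1.62e-05). F10, clotting factor X, differed by 0.64 ± 0.13 (adjusted p = 0.000454), and Cfb, complement factor B, by 0.50 ± 0.11 (adjusted p = 0.00132). The liver makes all of these. The liver marker sum was higher at CT24 with Ttr and overlapped between the groups without it, and all 10 liver markers had a difference above 0. The part of liver RNA was not tested. The C1q chains, which macrophages make, are in this list and among the macrophage markers. C1qc was higher by 0.36 (adjusted p = 0.0123), but not without CT0 replicate 2 (adjusted p = 0.0954).

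**Figure D3:**
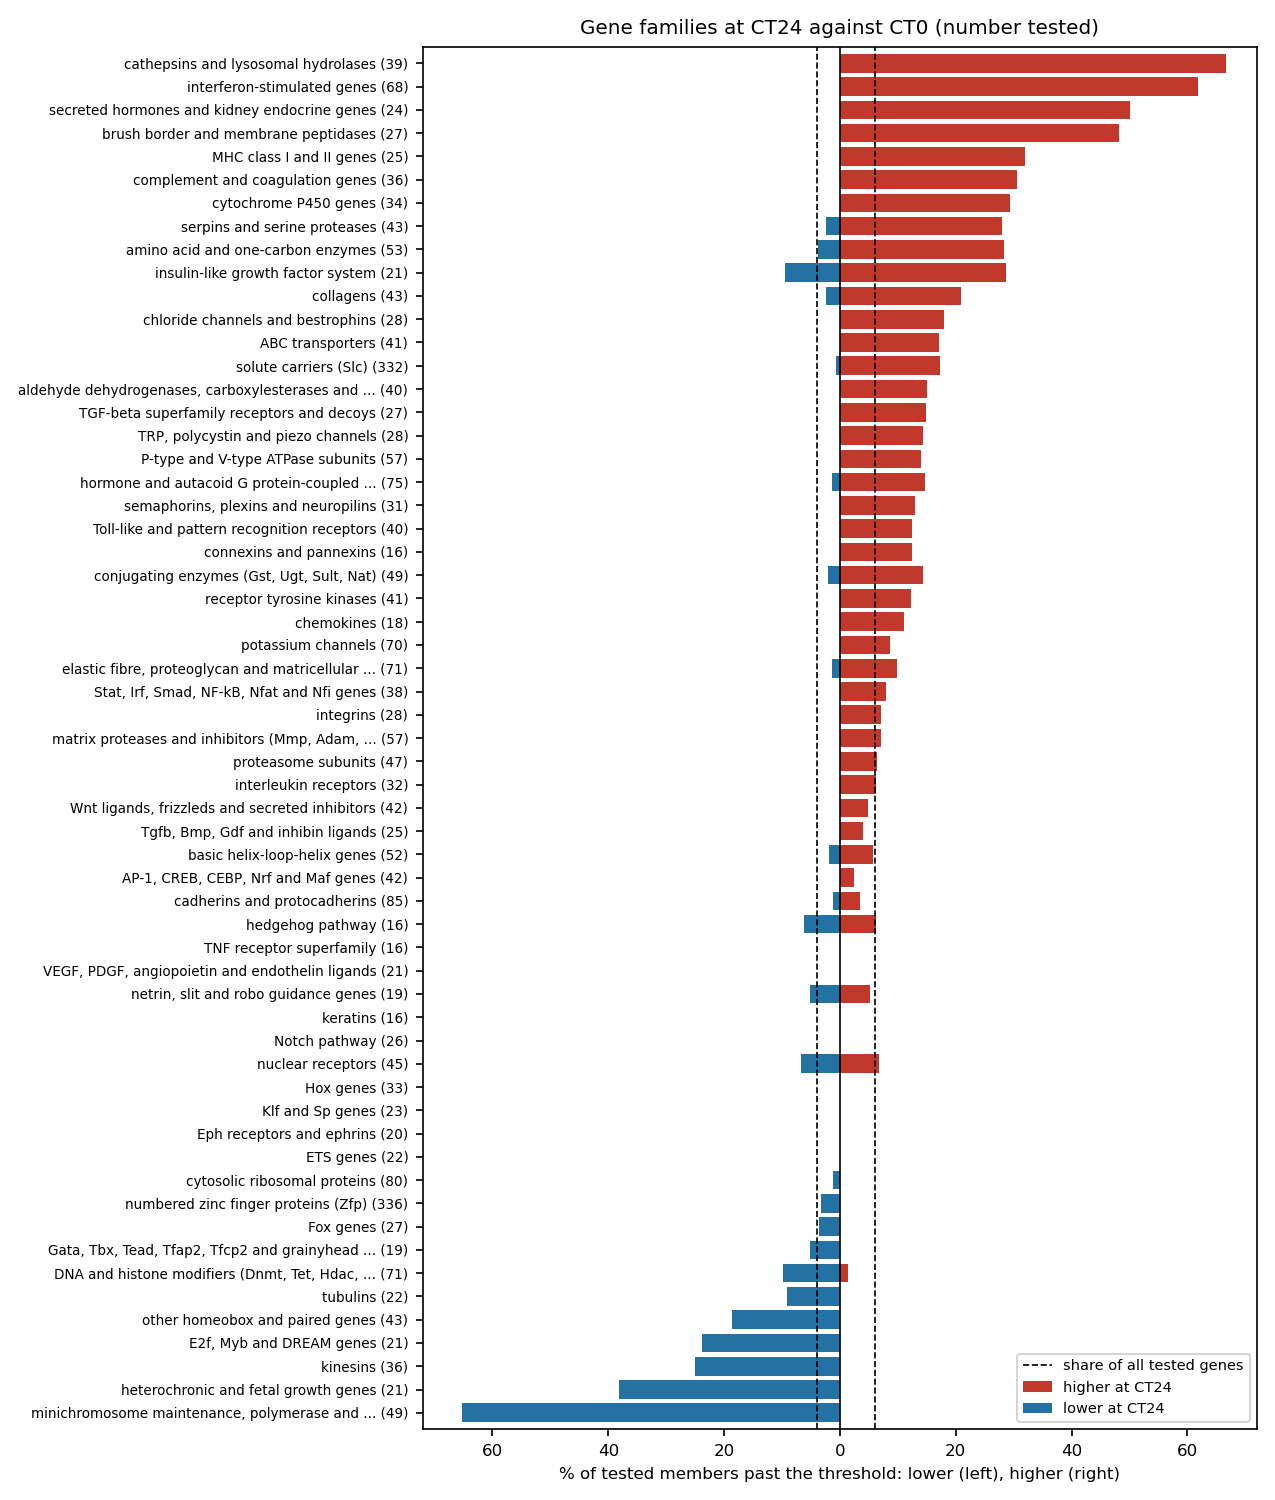
Share of tested members past the threshold in gene lists with at least 15 tested members (number in brackets), higher at CT24 to the right in red and lower to the left in blue. Dashed lines mark the share of all tested genes, 6.04% higher and 3.96% lower. Lysosomal, interferon-stimulated and endocrine genes stand at the top and replication genes at the bottom, while several transcription factor families have no call.

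Few transcription factors passed the test, and more of these were lower than higher. Of 714 tested, 10 were higher and 30 lower (median -0.0327), or 1.4% higher and 4.2% lower, against 6.04% and 3.96% of all tested genes. No member passed in limma among 14 Sox, 33 Hox, 23 Klf and Sp or 22 ETS genes, where 1, 2, 7 and 3 had an unadjusted p under 0.05. The nearest were Sox11 (-0.15, adjusted p = 0.179), Hoxd12 (-0.33, adjusted p = 0.147), Klf4 (0.38, adjusted p = 0.0543) and Elf5 (-0.19, adjusted p = 0.0798). In the fit of CT0 to CT24 alone the Klf and Sp genes were higher in 5 and lower in 4, and the ETS genes higher in 2 and lower in 3. The Sox genes were lower in 1 and the Hox genes in 2. That fit called 2070 of all 14426 tested genes higher and 1762 lower. Nuclear receptors were higher in 3 and lower in 3 of 45 (6.67% each), near the 6.04% and 3.96% of all tested genes. They were lower in 1 without CT0 replicate 2 or without CT0 replicate 4. Ppara, the receptor that drives fatty acid oxidation, had 743, 892, 851 and 822 in the CT24 libraries, against 623, 592, 566 and 604 in the CT0 libraries (0.47 ± 0.10, adjusted p = 0.0015). Vdr, the vitamin D receptor, had 2256, 2452, 2484 and 2179 in the CT24 libraries, against 1774, 1718, 1702 and 1906 in the CT0 libraries (0.40 ± 0.08, adjusted p = 0.000531). In both, all CT24 libraries were above all CT0 libraries, and the slopes over CT4 to CT20 were positive but did not pass (0.21 ± 0.15 for Ppara and 0.35 ± 0.11 for Vdr). Esrrb, an orphan estrogen-related receptor, was higher by 0.58 ± 0.16 (adjusted p = 0.0121), a call lost without CT24 replicate 2 (adjusted p = 0.0529). Nr2f1, also called COUP-TFI, was lower with 1157, 1097, 1114 and 1197 at CT24 and 1426, 1537, 1374 and 1483 at CT0 (-0.35 ± 0.08, adjusted p = 0.00165).

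Among 43 other homeobox and paired genes 8 were lower (18.6%, against 3.96% of all tested genes) and 0 higher (3 at an unadjusted p under 0.05). The number lower was 5 without CT24 replicate 3 or without CT0 replicate 2. Meox2, a homeobox factor of mesenchyme, had 241, 250, 263 and 265 in the CT24 libraries, against 352, 350, 426 and 358 in the CT0 libraries (-0.54 ± 0.11, adjusted p = 0.000791). Its means at CT4 to CT20 lay between 301.3 and 327, below every CT0 library and above every CT24 library. Meis1, a partner of Hox proteins, had 2626, 2438, 2553 and 2656 in the CT24 libraries, against 2966, 3159, 3097 and 3121 in the CT0 libraries (-0.27 ± 0.06, adjusted p = 0.00495), but its mean at CT20, 2940, was above those of CT8, CT12 and CT16. The E2f, Myb and DREAM genes, which time entry into S phase and mitosis, were lower in 5 of 21 (23.8%) and higher in 0 (1 at an unadjusted p under 0.05), and lower in 3 without CT24 replicate 2. E2f8 had 1090, 976, 1036 and 1020 in the CT24 libraries, against 1247, 1388, 1326 and 1409 in the CT0 libraries (-0.38 ± 0.08, adjusted p = 0.0018), and Rbl1, the pocket protein p107, differed by -0.24 ± 0.06 (adjusted p = 0.00859). Their slopes over CT4 to CT20 were 0.09 ± 0.12 for E2f8 and 0.04 ± 0.09 for Rbl1, both within their SE of 0. Numbered zinc finger proteins were lower in 11 of 336 (3.27%, against 3.96% of all tested genes) and higher in 0. At an unadjusted p under 0.05, 47 were lower and 3 higher, and 257 of the 336 had a difference below 0. The number lower was 3 to 7 with any 1 of the 8 libraries left out, but 71 (21.1%, against 12.2% of all tested genes) in the fit of CT0 to CT24 alone and 75 (22.3%, against 13.1%) in the fit of the 8 libraries alone. Zfp518a, a zinc finger protein, differed by -0.39 ± 0.08 (adjusted p = 0.000693).

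Epas1, the hypoxia-inducible factor HIF-2 alpha, had 5199, 5778, 5359 and 5401 in the CT24 libraries, against 4506, 4681, 4603 and 4994 in the CT0 libraries. The groups did not overlap, the difference was 0.21 ± 0.06 (adjusted p = 0.0113) and the slope 0.39 ± 0.08 (adjusted p = 0.0126), but without CT24 replicate 2 the difference did not pass (adjusted p = 0.0733). Epo, erythropoietin, a kidney hormone whose gene HIF-2 alpha activates, had only 31, 20, 5 and 8 in the CT24 libraries, against 4, 1, 1 and 3 in the CT0 libraries. Its call (2.21, adjusted p = 0.036) was lost without CT24 replicate 1 (adjusted p = 0.141), CT24 replicate 2 (0.13), CT0 replicate 2 (0.114) or CT0 replicate 3 (0.113), and with a pseudocount of 10 (0.0686).

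**Figure D4:**
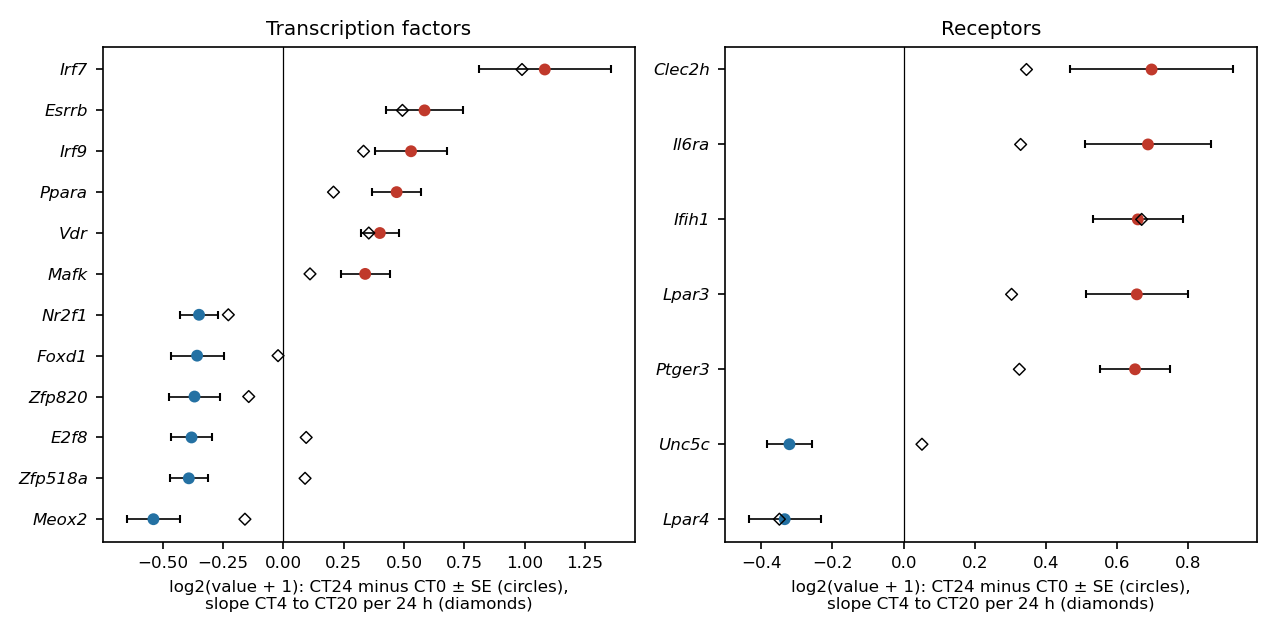
CT24 minus CT0 in log2(value + 1) with its SE (circles; red higher, blue lower) for transcription factors and receptors from among the 6 largest changes past the threshold in each direction, and their slope over CT4 to CT20 per 24 h (diamonds). For the genes higher at CT24 the diamonds lie above 0, while E2f8, Zfp518a and Unc5c, lower at CT24, have diamonds just above 0.

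Receptors, with secreted decoys counted among them, rose more often than they fell, with 35 higher and 2 lower of 339 tested (median 0.0778). These were 10.3% and 0.59%, against 6.04% and 3.96% of all tested genes. Among 75 receptors for hormones and local mediators that couple to G proteins, 11 were higher (14.7%) and 1 lower (1.33%). Ptger3, the prostaglandin E2 receptor EP3, which opposes water transport in the tubule, had 837, 809, 707 and 701 in the CT24 libraries, against 542, 493, 480 and 430 in the CT0 libraries, with separate groups (0.65 ± 0.10, adjusted p = 9.84e-06). Lpar3, a receptor for lysophosphatidic acid, had 522, 519, 459 and 532 in the CT24 libraries, against 327, 307, 303 and 352 in the CT0 libraries (0.66 ± 0.14, adjusted p = 0.00172). P2ry2, a purine receptor, was higher by 0.56 ± 0.15 (adjusted p = 0.00859) and did not pass without CT24 replicate 2 (adjusted p = 0.0588). Cytokine receptors changed singly. Il6ra, the interleukin 6 receptor, had 196, 250, 200 and 232 in the CT24 libraries, against 135.8 ± 12.7 (mean and SD) in the CT0 libraries, none of them above 151 (0.69 ± 0.18, adjusted p = 0.00764), and Il10rb, a chain shared by the receptors of interleukin 10 and of lambda interferons, differed by 0.27 ± 0.05 (adjusted p = 0.000214). Csf1r, the growth factor receptor that defines macrophages, had 2232, 2354, 2003 and 2415 in the CT24 libraries, against 1522, 1448, 1715 and 1606 in the CT0 libraries (0.52 ± 0.10, adjusted p = 0.000402). It was 1 of 5 receptor tyrosine kinases higher among 41 (12.2%), a count of 1 without CT24 replicate 2, CT24 replicate 3, CT0 replicate 2 or CT0 replicate 3, of 2 without CT0 replicate 1 and of 3 without any other single library. No Eph receptor or ephrin (20 tested) and no member of the TNF receptor family (16) passed in limma, where 3 and 5 had an unadjusted p under 0.05. The nearest were Efna1 (0.13, adjusted p = 0.102) and Tnfrsf19 (0.18, adjusted p = 0.0872). In the fit of CT0 to CT24 alone 5 of the 16 TNF receptor genes were higher and 0 lower, and with the 8 libraries alone 6 and 0. For the Eph receptors and ephrins these were 2 and 0, and 2 and 1. The fit of CT0 to CT24 alone called 2070 of all 14426 tested genes higher and 1762 lower.

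Some guidance genes of axon and vessel growth passed. Of 31 semaphorins, plexins and neuropilins 4 were higher (12.9%, against 6.04% of all tested genes) and 0 lower, also 0 at an unadjusted p under 0.05. The number higher was 2 or 3 when any 1 of the 8 libraries was left out. Of 19 netrin, slit and robo genes 1 was higher and 1, Unc5c, lower (5.26% each), near the 6.04% and 3.96% of all tested genes. Sema3g, a semaphorin of arterial endothelium and podocytes, had 4382, 4632, 4272 and 4574 in the CT24 libraries, against 3080, 3225, 3190 and 3208 in the CT0 libraries (0.49 ± 0.09, adjusted p = 0.000109). It climbed through the day, with means of 3464, 3594, 3964, 3864 and 4424 at CT4, CT8, CT12, CT16 and CT20 and a slope of 0.48 ± 0.12 (adjusted p = 0.0481). Unc5c, a netrin receptor, had 3163, 3084, 3158 and 3077 in the CT24 libraries, against 3816, 3998, 3892 and 3888 in the CT0 libraries (-0.32 ± 0.06, adjusted p = 0.00043), with separate groups. Its mean at CT20 was 3835, near the CT0 level, and its slope was 0.05 ± 0.09. Itga8, the integrin chain of kidney mesenchyme that the ureteric bud signal nephronectin binds, was higher by 0.23 ± 0.06 (adjusted p = 0.00715). Nlrp6, an innate sensor found in epithelia, was higher by 0.54 ± 0.13 (adjusted p = 0.00537), and the chemokine receptor Cxcr4 by 0.31 ± 0.08 (adjusted p = 0.00763), although its mean was between 1389 and 1511 at all 5 hours between, with a slope of -0.01 ± 0.11.

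Ligands and hormones included large rises. Of 24 secreted hormone and kidney endocrine genes 12 were higher (50%, against 6.04% of all tested genes) and 0 lower, also 0 at an unadjusted p under 0.05 (median 0.381). The number higher was 7 without CT24 replicate 2. Agt, angiotensinogen, the precursor of the angiotensins, had 489, 539, 468 and 503 in the CT24 libraries, against 274, 233, 218 and 278 in the CT0 libraries, a difference of 1.00 ± 0.18 (adjusted p = 0.000208) and a slope of 1.11 ± 0.26 (adjusted p = 0.0328). Klk1, tissue kallikrein, which releases kinins, had 2225, 2416, 2268 and 2118 in the CT24 libraries, against 1294, 984, 941 and 1204 in the CT0 libraries (1.04 ± 0.15, adjusted p = 1.46e-05). The ratio of the means, CT24 over CT0, was 1.99 for Agt and 2.04 for Klk1. Cyp24a1, the enzyme that inactivates vitamin D, had 2197, 4044, 3094 and 2503 in the CT24 libraries, against 1354, 1365, 1297 and 1323 in the CT0 libraries, but its course was not a climb, with means of 2556, 1520, 1088, 1701 and 4054 at CT4, CT8, CT12, CT16 and CT20. Its call (1.11, adjusted p = 0.00889) was lost without CT24 replicate 2 (adjusted p = 0.0603).

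The insulin-like growth factor system moved in both directions, with 6 higher and 2 lower of 21 (28.6% and 9.52%, against 6.04% and 3.96% of all tested genes). Igfbp3, the main carrier of these factors in blood, had 16985, 17287, 16511 and 17346 in the CT24 libraries, against 12857, 12412, 11420 and 11739 in the CT0 libraries (0.49 ± 0.09, adjusted p = 0.000193). Igf2, the fetal growth factor itself, had 39573, 36040, 37429 and 41628 in the CT24 libraries, against 45607, 51232, 48424 and 50939 in the CT0 libraries, again with separate groups (-0.34 ± 0.07, adjusted p = 0.00043). Igfbp1 was higher by 0.94 ± 0.26 (adjusted p = 0.0162), but not without CT24 replicate 2 (adjusted p = 0.0933). Among other ligands Bmp6 had 943, 1043, 974 and 928 at CT24 and 788, 705, 702 and 686 at CT0 (0.43 ± 0.09, adjusted p = 0.00156), Fgf1 differed by 0.28 ± 0.07 (adjusted p = 0.00617), and the chemokines Cxcl14 and Cxcl16 by 0.51 ± 0.07 (adjusted p = 6.41e-07) and 0.32 ± 0.08 (adjusted p = 0.00449). Cxcl14 had 2465, 2524, 2311 and 2345 in the CT24 libraries, against 1832, 1696, 1644 and 1591 in the CT0 libraries. No member of the Notch pathway (26 tested) and none of the VEGF, PDGF, angiopoietin and endothelin ligands (21) passed in limma, where 3 and 5 had an unadjusted p under 0.05, with Lfng (-0.15, adjusted p = 0.083) and Vegfa (0.22, adjusted p = 0.0641) nearest. In the fit of CT0 to CT24 alone 10 of the 21 ligands were higher and 0 lower, and with the 8 libraries alone 9 and 0. For the Notch pathway these were 2 and 1, and 2 and 2. The fit of CT0 to CT24 alone called 2070 of all 14426 tested genes higher and 1762 lower.

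Transporters and channels were higher in 89 and lower in 2 of 572 (median 0.103). These were 15.6% and 0.35%, against 6.04% and 3.96% of all tested genes. Solute carriers made up 57 of those higher, out of 332 tested (17.2%). Of the 57, 56 had a positive slope over CT4 to CT20, as had 837 of all 872 genes higher. Slc14a1 and Slc14a2, urea transporters of the vasa recta and of the inner medullary duct, had the largest differences past the threshold. Slc14a1 had 186, 218, 169 and 191 in the CT24 libraries, against 96.5 ± 16.3 (mean and SD) in the CT0 libraries (0.99 ± 0.15, adjusted p = 6.9e-06) and a slope of 0.84 ± 0.21 (adjusted p = 0.0417). Slc14a2 had 762, 590, 595 and 770 in the CT24 libraries, against 259, 426, 408 and 309 in the CT0 libraries (0.97 ± 0.20, adjusted p = 0.000827). Slc5a10, a sodium-coupled sugar transporter, differed by 0.93 ± 0.22 (adjusted p = 0.00493), and Slc22a29, of the organic anion transporter family, by 0.89 ± 0.15 (adjusted p = 8.82e-05). Abca13, a large lipid transporter, had 2278, 2517, 2395 and 2276 in the CT24 libraries, against 1670, 1756, 1542 and 1597 in the CT0 libraries (0.53 ± 0.10, adjusted p = 0.000272) with a slope of 0.68 ± 0.14 (adjusted p = 0.0143). It was 1 of 7 ABC transporters higher among 41 (17.1%), a count of 3 to 5 with any single library left out.

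Several ion channels were among those higher. Kcnj15 and Kcnj16, inward rectifier potassium channels, differed by 0.64 ± 0.11 (adjusted p = 8e-05) and 0.33 ± 0.07 (adjusted p = 0.000683). Kcnj15 had 8078, 9463, 7978 and 7935 in the CT24 libraries, against 5618, 4822, 5596 and 5383 in the CT0 libraries. Trpv5, the calcium entry channel of the distal tubule, had 1033, 1089, 898 and 1081 in the CT24 libraries, against 598, 656, 762 and 561 in the CT0 libraries (0.67 ± 0.13, adjusted p = 0.000673). Pkhd1, fibrocystin of the primary cilium, was higher by 0.33 ± 0.08 (adjusted p = 0.00341). The connexins Gjb1 and Gjb2, gap junction proteins, differed by 0.47 ± 0.09 (adjusted p = 0.00029) and 0.43 ± 0.09 (adjusted p = 0.000854). Gjb2 had 835, 850, 816 and 856 in the CT24 libraries, against 625, 621, 625 and 626 in the CT0 libraries, with separate groups.

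Most lysosomal enzymes were higher, by small amounts. Of 39 tested cathepsins and lysosomal hydrolases 26 were higher (66.7%, against 6.04% of all tested genes) and 0 lower (also 0 at an unadjusted p under 0.05). The median of all 39 was 0.187. Each of the 26 had separate groups and a positive slope over CT4 to CT20. Of all 872 genes higher, 825 had separate groups and 837 a positive slope. The count was 15 without CT24 replicate 2, 16 without CT24 replicate 3, 17 without CT24 replicate 4, 13 without CT0 replicate 2 and 15 without CT0 replicate 3. Lgmn, legumain, an asparagine-specific protease, had 17869, 19330, 18283 and 17435 in the CT24 libraries, against 14344, 12469, 13268 and 13163 in the CT0 libraries (0.45 ± 0.07, adjusted p = 1.92e-05). Neu1, the lysosomal sialidase, had 5061, 5459, 5076 and 4966 in the CT24 libraries, against 4090, 3604, 3772 and 3788 in the CT0 libraries (0.43 ± 0.08, adjusted p = 0.000171). Lipa, the acid lipase that frees cholesterol from its esters, differed by 0.43 ± 0.08 (adjusted p = 0.000148). The mean of the 39 genes, relative to CT0, was 0.0376, 0.0699, 0.0391, 0.0431, 0.166 and 0.198 at CT4, CT8, CT12, CT16, CT20 and CT24, so most of the rise came after CT16. The macrophage marker sum, also higher at CT24, was not tested for its part.

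Brush border enzymes were higher in 13 of 27 (48.1%, against 6.04% of all tested genes) and lower in 0, also 0 at an unadjusted p under 0.05 (median 0.305). The number higher was 8 without CT24 replicate 2 or without CT0 replicate 3. Treh, which splits trehalose, had 102.2 ± 4.5 (mean and SD) in the CT24 libraries, none of them below 97, against 46, 39, 52 and 55 in the CT0 libraries (1.09 ± 0.23, adjusted p = 0.000936). Tmem27, collectrin, a partner of amino acid transporters, had 13322, 14134, 12354 and 13192 in the CT24 libraries, against 9456, 9201, 9290 and 8969 in the CT0 libraries (0.52 ± 0.07, adjusted p = 2.45e-06). Dpep1, a dipeptidase, differed by 0.65 ± 0.15 (adjusted p = 0.00244), and the microvillus cadherins Cdhr5 and Cdhr2 by 0.50 ± 0.08 (adjusted p = 1.47e-05) and 0.42 ± 0.10 (adjusted p = 0.00652). Amino acid enzymes were higher in 15 and lower in 2 of 53 (28.3% and 3.77%, against 6.04% and 3.96% of all tested genes). Acmsd, a step in tryptophan breakdown, had 2939, 2886, 2807 and 2747 in the CT24 libraries, against 1669, 1599, 1142 and 1356 in the CT0 libraries (1.00 ± 0.17, adjusted p = 0.000134) and a slope of 1.00 ± 0.24 (adjusted p = 0.043), and Gatm, the first enzyme of creatine synthesis, differed by 0.62 ± 0.14 (adjusted p = 0.00395).

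Cytochrome P450 genes were higher in 10 of 34 (29.4%, against 6.04% of all tested genes) and lower in 0, also 0 at an unadjusted p under 0.05 (median 0.194). Cyp2e1, which oxidises small organic molecules, had 655, 748, 655 and 653 in the CT24 libraries, against 413, 445, 332 and 367 in the CT0 libraries (0.80 ± 0.12, adjusted p = 1.24e-05) and passed the slope as well (0.85 ± 0.17, adjusted p = 0.0126). Cyp4a14 had 106.8 ± 38 (mean and SD) in the CT24 libraries, none of them below 54, against 40, 27, 35 and 31 in the CT0 libraries (1.58 ± 0.41, adjusted p = 0.00786), and Cyp4a10 had 715, 799, 849 and 818 in the CT24 libraries, against 375, 386, 358 and 327 in the CT0 libraries (1.14 ± 0.30, adjusted p = 0.0111). Both are fatty acid hydroxylases and targets of Ppara, and as close copies they are uncertain as single genes. Their means over CT4 to CT20 did not climb evenly, with 421, 584, 414, 617 and 608 at CT4, CT8, CT12, CT16 and CT20 for Cyp4a10. Among conjugating enzymes 7 were higher and 1 lower of 49 (14.3% and 2.04%, against 6.04% and 3.96% of all tested genes). Nat8, which acetylates cysteine conjugates, differed by 0.97 ± 0.15 (adjusted p = 2.22e-05), Sult1c2, a sulfotransferase, by 0.72 ± 0.11 (adjusted p = 2.32e-05), and the glycosyltransferase Ugt3a2, a close copy of Ugt3a1, by 1.02 ± 0.16 (adjusted p = 2.65e-05). Serpina6, the corticosteroid-binding globulin, had 10067, 11952, 9638 and 10593 in the CT24 libraries, against 6601, 5141, 5264 and 6115 in the CT0 libraries (0.87 ± 0.14, adjusted p = 6.59e-05). The liver also makes Cyp2e1 and Serpina6, and its part in their differences was not tested.

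Some matrix and adhesion genes changed. Of 43 collagens 9 were higher (20.9%, against 6.04% of all tested genes) and 1 lower. Only 2 were higher without CT24 replicate 2, 3 without CT0 replicate 1 or CT0 replicate 2, and 4 without CT0 replicate 3. The number higher was 5 without CT24 replicate 3 or CT24 replicate 4. Col4a3 and Col4a4 passed in every setting. They are chains of the mature glomerular basement membrane. Col4a4 had 3695, 4113, 3675 and 3776 in the CT24 libraries, against 2625, 2448, 2464 and 2404 in the CT0 libraries, a difference of 0.62 ± 0.08 (adjusted p = 7.26e-07) and a slope of 0.52 ± 0.11 (adjusted p = 0.0232). Col4a3 differed by 0.66 ± 0.10 (adjusted p = 1.31e-05) with a slope of 0.57 ± 0.14 (adjusted p = 0.0478). Timp3, an inhibitor of matrix proteases, was higher by 0.35 ± 0.07 (adjusted p = 0.00033), and Sparcl1, a matricellular protein of vessels, by 0.44 ± 0.10 (adjusted p = 0.00318). Cdh2, N-cadherin, was lower with 1409, 1300, 1389 and 1319 at CT24 and 1584, 1770, 1721 and 1637 at CT0 (-0.31 ± 0.07, adjusted p = 0.00194). No keratin passed in limma among 16, of which 3 had an unadjusted p under 0.05. In the fit of CT0 to CT24 alone 2 were higher and 1 lower.

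Part of the fetal growth genes were lower. Of 21 tested heterochronic and fetal growth genes 8 were lower (38.1%, against 3.96% of all tested genes) and 0 higher, with 1 higher at an unadjusted p under 0.05 (median -0.222). The 8 all had a negative slope over CT4 to CT20, as had 397 of all 571 genes lower. Hmga2, a chromatin protein of fetal and stem cells, had 1962, 1774, 1890 and 1882 in the CT24 libraries, against 2381, 2325, 2349 and 2380 in the CT0 libraries, a difference of -0.33 ± 0.05 (adjusted p = 2.22e-05) and a slope of -0.33 ± 0.07 (adjusted p = 0.0247). Igf2bp3, a fetal RNA-binding protein that binds Igf2 transcripts, had 1475, 1496, 1586 and 1486 in the CT24 libraries, against 1896, 1933, 1970 and 2004 in the CT0 libraries (-0.37 ± 0.06, adjusted p = 5.34e-05). Nnat, neuronatin, an imprinted gene, differed by -0.43 ± 0.11 (adjusted p = 0.00626). Ptges3, the Hsp90 cochaperone p23, fell by both measures as well (-0.23 ± 0.05, adjusted p = 0.000602, and a slope of -0.28 ± 0.06, adjusted p = 0.0289). The cytosolic ribosomal proteins showed 1 lower and 0 higher of 80, also 0 higher at an unadjusted p under 0.05 (median -0.0659). Of the 80, 77 had a difference below 0. The number lower was 9 in the fit of CT0 to CT24 alone and 19 in the fit of the 8 libraries alone. In those fits 12.2% and 13.1% of all tested genes were lower. The mean of the 80, relative to CT0, ranged from -0.106 to -0.0236 at CT24 and -0.0533 to 0.0459 at CT0, so the groups overlapped.

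DNA replication genes were lower in 32 of 49 (65.3%, against 3.96% of all tested genes) and higher in 0, with 1 higher at an unadjusted p under 0.05 (median -0.246). All 32 had separate groups, as had 554 of all 571 genes lower. The count was 13 without CT24 replicate 2, 21 without CT24 replicate 3, 19 without CT0 replicate 2 and 20 without CT0 replicate 3. Pole2, a subunit of DNA polymerase epsilon, had 509, 490, 489 and 558 in the CT24 libraries, against 644, 689, 696 and 658 in the CT0 libraries (-0.39 ± 0.08, adjusted p = 0.000854). Prim1, the primase, had 1146, 1037, 1038 and 1100 in the CT24 libraries, against 1419, 1414, 1447 and 1358 in the CT0 libraries (-0.38 ± 0.09, adjusted p = 0.00259). The hours between did not follow in a line: only 14 of the 32 had a negative slope over CT4 to CT20, against 397 of all 571 genes lower. The mean of the 49 genes, relative to CT0, was -0.0782, -0.108, -0.101, -0.0488, -0.131 and -0.243 at CT4, CT8, CT12, CT16, CT20 and CT24. Of these means that of CT16 was nearest to CT0 and that of CT24 lowest. Some mitotic motors were lower as well. Of 36 kinesins 9 were lower (25%) and 0 higher (4 at an unadjusted p under 0.05). Among the 9 were Kif4 (-0.36 ± 0.07, adjusted p = 0.00043), Kif14 (-0.37 ± 0.09, adjusted p = 0.0067) and Kif2c (-0.32 ± 0.08, adjusted p = 0.0032), and 5 of the 9 had a negative slope. Tubb5, a beta-tubulin, differed by -0.24 ± 0.05 (adjusted p = 0.00174). Among 71 DNA and histone modifiers 7 were lower (9.86%, against 3.96% of all tested genes) and 1 higher (1.41%, against 6.04%). Uhrf1, which guides maintenance methylation of DNA, had 3514, 3199, 3504 and 3692 at CT24 and 4075, 4628, 4520 and 4369 at CT0 (-0.34 ± 0.09, adjusted p = 0.00728), and Cbx5, heterochromatin protein HP1 alpha, differed by -0.19 ± 0.04 (adjusted p = 0.00271). The modifiers lower numbered 3 without CT24 replicate 2 or CT0 replicate 2 and 4 without CT0 replicate 3.

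**Figure D5:**
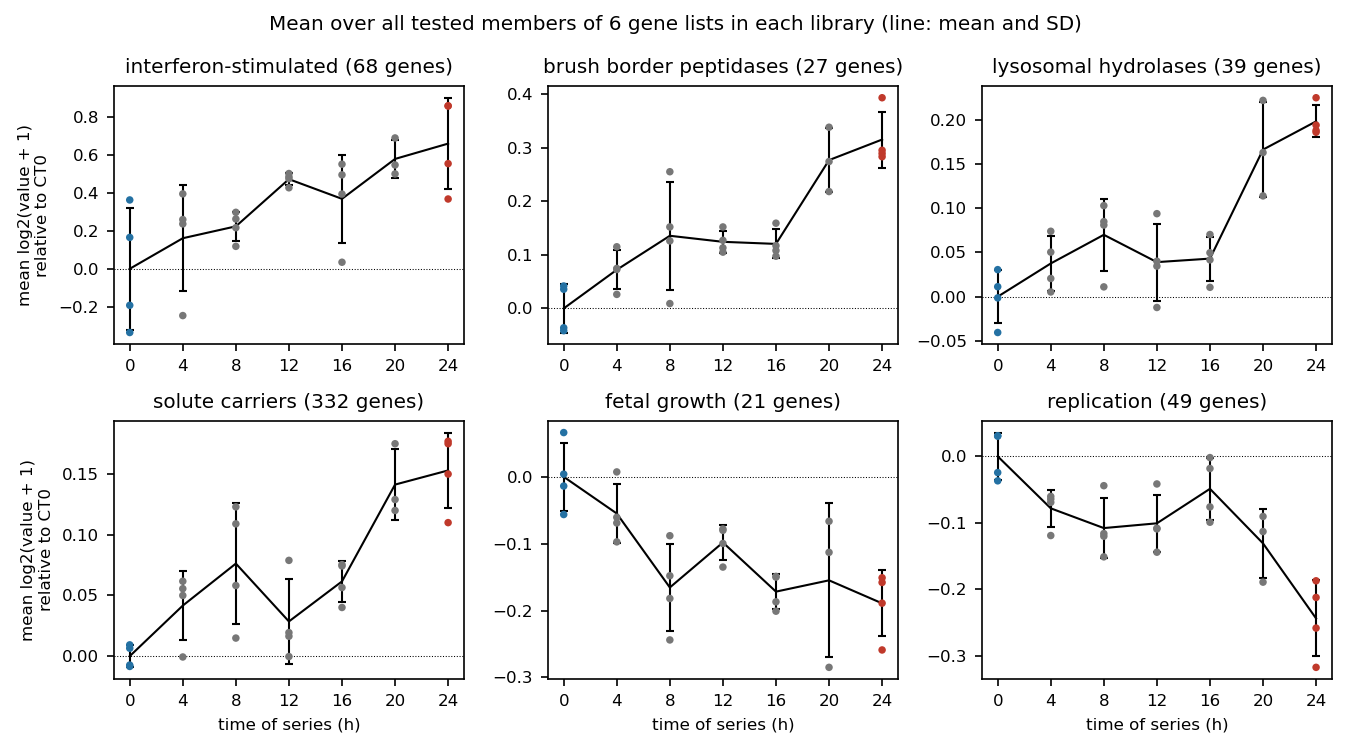
Mean log2(value + 1) over all tested members of 6 gene lists in each library, relative to the mean of the 4 CT0 libraries, over hours 0 to 24 (points: libraries; line and bars: mean and SD; CT24 red, CT0 blue). The interferon-stimulated mean ranged over 0.367 to 0.857 at CT24 and -0.335 to 0.362 at CT0, the widest spread of the 6, while the lysosomal mean ranged over 0.186 to 0.225 at CT24 and -0.0405 to 0.0306 at CT0, and the replication mean is lowest at CT24.

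The CCAAT box, a promoter element common in cell cycle genes, was found on either strand of the 300-base promoter in 271 of 448 genes lower at CT24 (60.5%) and 244 of 669 genes higher (36.5%), against 4718 of 11129 tested genes (42.4%). It stood in 26 of all 41 replication genes with a promoter sequence (63.4%), and among those that were lower in 20 of 26 (76.9%). The 150 bases before the start of 2 such genes are shown with the box in capitals (CCAAT, or ATTGG for the other strand). Pcna is the sliding clamp of DNA polymerase, and Orc6 a subunit of the origin recognition complex.
Pcna (chr2:132253181-132253330, minus strand): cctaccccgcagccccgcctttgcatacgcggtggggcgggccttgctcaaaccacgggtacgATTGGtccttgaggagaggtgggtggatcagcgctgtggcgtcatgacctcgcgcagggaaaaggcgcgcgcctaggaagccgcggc
Orc6 (chr8:85299482-85299631, plus strand): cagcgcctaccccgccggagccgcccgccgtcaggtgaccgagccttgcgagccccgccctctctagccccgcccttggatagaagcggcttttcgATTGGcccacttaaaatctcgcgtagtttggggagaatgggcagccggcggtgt
Both were picked for their promoters after their values were seen. Pcna had 5116, 4415, 4751 and 4770 in the CT24 libraries, against 5785, 6047, 5856 and 5561 in the CT0 libraries (-0.29 ± 0.06, adjusted p = 0.000936), and Orc6 had 1293, 1164, 1205 and 1310 in the CT24 libraries, against 1435, 1479, 1552 and 1498 in the CT0 libraries (-0.26 ± 0.06, adjusted p = 0.00147). Other elements were also searched on both strands, and none of the motifs contains another. TTTGAA, a cell cycle element known as CHR, was in 23.4% of the genes lower and 16.7% of those higher, against 14.5% of all. Among the replication genes that were lower it was in only 2 of 26 (7.69%), and among the interferon-stimulated genes that were higher in 11 of 34 (32.4%). The HNF1 half-site GTTAAT was in 72 of 669 genes higher (10.8%) and 30 of 448 lower (6.7%), against 5.9% of all, and the nuclear receptor half-site AGGTCA in 148 of 669 higher (22.1%) and 58 of 448 lower (12.9%), against 15.4% of all. These shares are descriptions of letters in the sequence.

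For 2 genes the hours between ran against the one-day change at the threshold. H1f0, the linker histone of resting and differentiating cells, had 18810, 18077, 18673 and 18492 in the CT24 libraries, against 22241, 22680, 21341 and 22291 in the CT0 libraries, a difference of -0.26 ± 0.05 (adjusted p = 0.000269). Its means were 19537, 16587, 15780, 18285 and 21787 at CT4, CT8, CT12, CT16 and CT20, a trough at CT12 and a peak at CT20, and its slope was 0.27 ± 0.07 (adjusted p = 0.0474). The mean at CT20 lay within the range of the CT0 libraries. Nrde2, which takes part in nuclear RNA interference in Caenorhabditis elegans, differed by -0.23 ± 0.06 (adjusted p = 0.0092) with a slope of 0.35 ± 0.09 (adjusted p = 0.043), and its difference did not pass without CT0 replicate 3 (adjusted p = 0.0616).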

How the data were processed

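Poly-A RNA of fetal C57BL/6 kidneys was sequenced with an Illumina TruSeq kit, per the labels' protocols. The submitters' processing notes name bcl2fastq, STAR 2.5.2b, featureCounts 1.5.0-p3 and mm10. No label says whether strand was used in counting, and genes that overlap or are close copies may share reads. The authors deposited 1 table of normalised values rounded to whole numbers, treated here as a score. How they were normalised is not stated in the labels or the table, and the values are not raw counts, so no count test was run.

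All 16099 genes of 51 libraries were taken as log2(value + 1). Genes whose mean value reached 10 across the libraries (14426) were fitted with limma 3.58.1 in R 4.3.3 (1 term per time point, spread shared by all libraries, trend and robust moderation, Benjamini-Hochberg adjustment over all genes tested, threshold 0.05). CT24 minus CT0 and the least-squares slope over the CT4 to CT20 means, in which CT12 has no weight, are contrasts of this fit. Samples were grouped by the time in their titles. Deviations from the group means of same-numbered CT24 and CT0 libraries correlated at -0.0967 to 0.163. Not all reached the minimum of 0.1 set for pairing, so no block was used. On simulated data the fit recovered 39% of changes of 0.25 and 70% of changes of 0.5 in CT24 minus CT0 over 14426 genes.

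The genes named are the 12 largest rises and falls with separate groups, up to 4 called members of each list (otherwise the one with the smallest p), and the called genes, transcription factors and receptors with the largest slope or difference, excluding predicted genes and sex-linked genes from the size-based parts. Liver and macrophage markers and the 6 genes with printed promoters were added. Some genes the rule names are not reported here. Members and lists were chosen with earlier results of these data known. Coordinates are from GENCODE M21 (GRCm38) and promoters from RefSeq (GRCm38.p6), which matched 11129 tested genes. Figures were drawn with matplotlib 3.10.9. The alternatives, in scaling, pseudocount, filter, moderation, libraries and block, are given in the closing section.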

Additional observations from a re-analysis of the deposited data

Results flagged for a closer look

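In 12 of the 244 groups of 4 libraries behind the genes named here, 1 library stood far from the other 3. Chance alone gives about 1 in 20 such groups. CT24 replicate 2 was the library in 5 of them. Its value was the highest of the 4 CT24 libraries for Cyp2e1 (748, with the others at 653 to 655), Kcnj15 (9463, others 7935 to 8078), Kcnj16 (7177, others 6455 to 6554) and P2ry2 (296, others 236 to 242), and the lowest for Psmb10 (599, others 672 to 679). CT24 replicate 3 stood apart for B3gnt5 (432, others 381 to 389) and Cbx5 (11385, others 11785 to 11860). Among the CT0 libraries, replicate 1 stood apart for Col4a3 (2207, others 2062 to 2083) and Esrrb (652, others 548 to 564), replicate 2 for Cxcl16 (499, others 544 to 550), replicate 3 for Meox2 (426, others 350 to 358) and replicate 4 for Ptges3 (5752, others 6179 to 6243). In each of these genes but P2ry2 and Esrrb the difference between CT24 and CT0 passed with any 1 library left out.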

How the results depend on the processing

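No named gene past the threshold reversed in direction. The balance of members higher and lower turned round in 4 lists: proteasome subunits (3 and 0; 3 and 15 in the fit of CT0 to CT24 alone, 3 and 16 with the 8 libraries alone, 4 and 19 with weights per library series), connexins (2 and 0; 2 and 3 in the fit of CT0 to CT24 alone and with weights), Wnt genes (2 and 0; 1 and 2 under quantile normalisation) and basic helix-loop-helix genes (3 and 1; 1 and 2 without CT0 replicate 1). The number of genes that differed between CT24 and CT0 depended most on which libraries set the spread, which was wider at CT28 to CT48 than at CT0 to CT24. It was 3832 (2070 higher, 1762 lower) in the fit of CT0 to CT24 alone, 3991 (2114 and 1877) with a weight per library series and 4068 (2174 and 1894) with the 8 libraries alone, against 1443 in the fit of all libraries. In simulated data the fit of CT0 to CT24 alone had 6.08% unchanged genes among its CT24 against CT0 calls, against 0% in the fit of all libraries. With 1 of the 8 libraries left out, the count was 773 to 1257, with 497 to 765 higher and 276 to 517 lower. The lowest came without CT24 replicate 2 (773, with 497 higher and 276 lower), without CT0 replicate 2 (864, with 544 and 320) and without CT0 replicate 3 (880, with 561 and 319), and without CT24 replicate 3 the number lower was 351. Quantile normalisation gave 797 higher and 754 lower (51.4% higher, against 60.4%), and the other scaling, filter, pseudocount and moderation settings gave 1365 to 1490. The slope over CT4 to CT20 passed in 8.34% of genes tested in the fit of CT0 to CT24 alone (664 genes also differing the same way between CT24 and CT0), 9.59% with weights per series (751), 0.88% without CT28 and CT32 (100; chosen after the data were seen), 1.04% without CT4 (25) and 0.132% without CT20 (8), against 0.527% (60) with all libraries. The share of genes lower at CT24 with a negative slope was 45.4% without CT20, against 69.5% with all libraries. The replicate numbers of the titles were not taken as pairs, since the correlations of same-numbered libraries (-0.0967 to 0.163) did not all reach 0.1. With the replicate number as a block 1560 genes differed (929 higher, 631 lower) and 85 passed for the slope. A count model was not run, since the values are not raw counts. The normalised values do not give depth, so no limit from depth can be stated.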
